A study of Mus musculus with 8 samples.

Results

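Pax2, Vax1 and Vax2 are homeobox genes of the ventral eye, and the data here concern the probe sets annotated to them on arrays of the mouse optic fissure, the ventral groove of the optic cup that closes during eye development. These genes were picked with earlier results of these data known, and every probe set annotated to them was taken, whatever its signal. The annotation gave 3 of the 45101 probe sets to these genes, 2 to Vax1 (the brighter 1457396_at and the dimmer 1421774_at) and 1 to Vax2 (1450303_at). It paired no probe set with Pax2, which is not analysed here. Wild-type C57BL/6 embryos were sectioned frozen and the fissure tissue was laser-captured, with 3 arrays for embryonic day 10.5 (E10.5), 3 for E11.5 and 2 for E12.5. Each array held RNA pooled from 3 embryos and amplified before labelling. The labels disagree on whether those 3 came from 1 litter or from several. Arrays carry their stage and their title's letter, A, B or C, as names, and all groups share the genotype and strain, so stage is the only labelled difference.

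The Vax proteins are homeodomain transcription factors, and Pax2 carries a paired domain. All act in the optic stalk and the ventral optic cup, where hedgehog signals from the midline promote them and where they oppose genes of neural retina and pigment epithelium such as Pax6 and Mitf. In mice the fissure fails to close without Pax2 or without Vax1, and the combined loss of both Vax genes turns optic nerve territory into retina. Vax1 is known mainly from the optic stalk and fissure margins. Vax2 is known mainly from the ventral retina, where it helps to set dorsal against ventral identity.

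The promoter of Vax1 is shown because Vax1 is the member with a pairwise change that passed the test. That change was on its dimmer probe set, while the brighter, which stands for the gene, passed no pairwise comparison. RefSeq (GRCm38.p6) places the 250 bases before its start at chr19:59170398-59170647 on the minus strand, and capitals mark the homeodomain core TAAT read on either strand.

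Vax1: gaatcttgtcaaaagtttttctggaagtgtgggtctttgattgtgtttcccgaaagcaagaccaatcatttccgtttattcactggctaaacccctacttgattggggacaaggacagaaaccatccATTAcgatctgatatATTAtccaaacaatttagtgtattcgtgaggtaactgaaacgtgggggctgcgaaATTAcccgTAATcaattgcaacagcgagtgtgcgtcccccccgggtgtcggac

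The core TAAT occurred 4 times in this window, counting both strands. Of 32851 promoter windows of the same length, 54.9% held it at least once and 9.62% at least 4 times. The CCAAT box (CCAAT) occurred 2 times, and 33.8% of windows held it. The TATA box (TATAAA), the nuclear receptor motif AGGTCA and the GLI site TGGGTGGTC were not found in these letters, against 12.4%, 14% and 0.225% of windows that held each. The motifs do not overlap one another, and a match describes letters and not a bound site.

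The deposited values were log2 signals, with array medians between 4.37 and 4.48. The upper end of the range was lowest at E11.5, where the 99th percentile lay between 11.2 and 12.4, while it ran from 12.5 to 12.9 at E10.5 and from 12.5 to 12.6 at E12.5. For the Gapdh control, the log2 signal of the 3 prime minus that of the 5 prime probe set, a common check of RNA integrity and amplification, ran from 4.19 to 4.71 at E10.5, from 3.35 to 4.63 at E11.5 and from 4.78 to 5.17 at E12.5. Of 12 optic cup and retinal progenitor markers, 11 were measured. At E10.5, E11.5 and E12.5 Six6 averaged 11.67, 10.49 and 11.75 log2 units, while Crym averaged 6.32, 7.33 and 4.85. The tissue thus carried Six6 at every stage, and the markers of this list differed in signal. They describe the optic cup and not the fissure in particular. Of the 9 other marker lists examined, the newborn retinal neuron list changed most often, with 12 of 13 measured genes higher at E12.5 than at E10.5. With so few arrays every value is imprecise, and the p-values measure only the spread between these pools. In pooled tissue, fewer cells of a type and less RNA per cell cannot be told apart.

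Vax1 signal was lower at E12.5 than at E10.5 on both of its probe sets. The change passed the test only on the dimmer, which is not the probe set that stands for the gene. On the dimmer probe set, log2 signal was 8.63, 7.44 and 8.25 at E10.5, then 7.43, 7.04 and 6.97 at E11.5, then 6.46 and 6.77 at E12.5. Each E12.5 array lay below each E11.5 array, and each E11.5 array lay below each E10.5 array, though E10.5 B exceeded E11.5 A by little. Of all tested probe sets, 14.1% had E12.5 arrays wholly below the E11.5 arrays. The stage means were 8.11 ± 0.61 (SD, n = 3), 7.15 ± 0.25 (SD, n = 3) and 6.61 ± 0.22 (SD, n = 2). At E12.5 this probe set fell by 1.5 on the log2 scale relative to E10.5 (SE 0.34, 95% interval -2.24 to -0.75, limma adjusted p = 0.0320), which is 2.82-fold lower. The call was lost when any 1 of 5 arrays was left out, with adjusted p = 0.0699 without E10.5 A, 0.0558 without E10.5 C, 0.0611 without E11.5 B, 0.20 both without E12.5 A and without E12.5 B, while the change stayed between -1.83 and -1.24 over all 8 such fits.

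On the brighter Vax1 probe set, log2 signal was 8.66, 9.01 and 8.97 at E10.5, 7.60, 7.81 and 7.89 at E11.5, and 7.87 and 7.89 at E12.5. All 5 later arrays lay below all E10.5 arrays, and the E11.5 and E12.5 arrays overlapped. Wholly below the E10.5 arrays were the E11.5 arrays for 19.3% of all tested probe sets and the E12.5 arrays for 25.7%. The stage means were 8.88 ± 0.19 (SD, n = 3), 7.77 ± 0.15 (SD, n = 3) and 7.88 ± 0.02 (SD, n = 2). The change was -1.11 at E11.5 relative to E10.5 (SE 0.23, limma adjusted p = 0.109) and -1.0 at E12.5 relative to E10.5 (SE 0.26, adjusted p = 0.0501), so neither passed 0.05. The test for any difference among the 3 stages passed on this probe set (limma F test, adjusted p = 0.0396) and not on the dimmer probe set (adjusted p = 0.0635). No member probe set passed this test with E10.5 A, E11.5 A or E11.5 B left out, or under 3 other settings. Fits without an E12.5 array leave that stage without a replicate and are not given here. These alternatives were counted over all member probe sets, so a call that remained need not be that of the brighter Vax1 probe set.

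**Figure D1:**
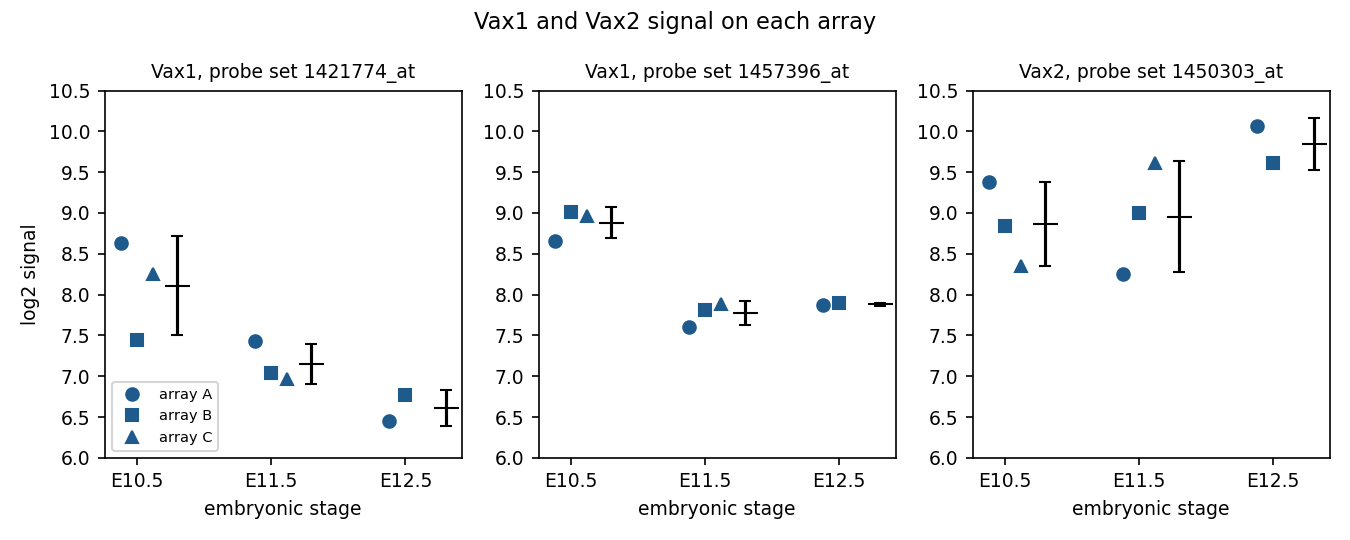
Log2 signal (vertical axis) of the Vax1 and Vax2 probe sets by embryonic stage (horizontal axis), 1 symbol per array by its letter, with the stage mean and SD in black. Both Vax1 probe sets were highest at E10.5, with means of 8.11 and 8.88, and Vax2 was highest at E12.5, with a mean of 9.84.

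The changes of the Vax1 probe sets had the same sign between E10.5 and each later stage and opposite signs between E11.5 and E12.5. For E11.5 relative to E10.5 the changes were -0.96 on the dimmer probe set (adjusted p = 0.162) and -1.11 on the brighter probe set. For E12.5 relative to E11.5 they were -0.53 on the dimmer probe set (adjusted p = 0.460) and 0.11 on the brighter probe set (adjusted p = 0.879, 95% interval -0.45 to 0.68). Across the 8 arrays their signals correlated at r = 0.69, but as deviations from the stage means r was -0.79, so within a stage the array that was high on one tended to be low on the other. These correlations describe 8 arrays that share their stage means and carry no test.

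The step between E10.5 and E11.5 has to be read against the shift of the whole table. The median change of all 27022 tested probe sets was -0.18 at E11.5 relative to E10.5, and -0.02 after quantile normalization. The Vax1 change on the brighter probe set was -1.11 as deposited and -0.76 after quantile normalization, below the median in both. Both Vax1 probe sets had E11.5 arrays wholly below the E10.5 arrays, as did 19.3% of all tested probe sets.

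Vax2 signal was higher at E12.5 than at the earlier stages, without passing the test. Its log2 signal was 9.38, 8.84 and 8.36 at E10.5, 8.25, 9.0 and 9.61 at E11.5, and 10.07 and 9.62 at E12.5. Both E12.5 arrays lay above every earlier array. Of all tested probe sets, 29.6% had E12.5 arrays wholly above the E11.5 arrays and 19.3% had them wholly above the E10.5 arrays. The share with both was not counted. The nearer E12.5 array was only just above E11.5 C, and the E10.5 and E11.5 arrays overlapped across nearly their whole range. The stage means were 8.86 ± 0.51 (SD, n = 3), 8.95 ± 0.68 (SD, n = 3) and 9.84 ± 0.32 (SD, n = 2). The change was 0.98 at E12.5 relative to E10.5 (SE 0.42, 95% interval 0.06 to 1.90, limma adjusted p = 0.198), 0.89 at E12.5 relative to E11.5 (SE 0.42, adjusted p = 0.316) and 0.09 at E11.5 relative to E10.5 (SE 0.38, adjusted p = 0.911). The interval of the last comparison ran from -0.73 to 0.92, so changes within that range are not excluded. The test over the 3 stages did not pass (adjusted p = 0.250).

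**Figure D2:**
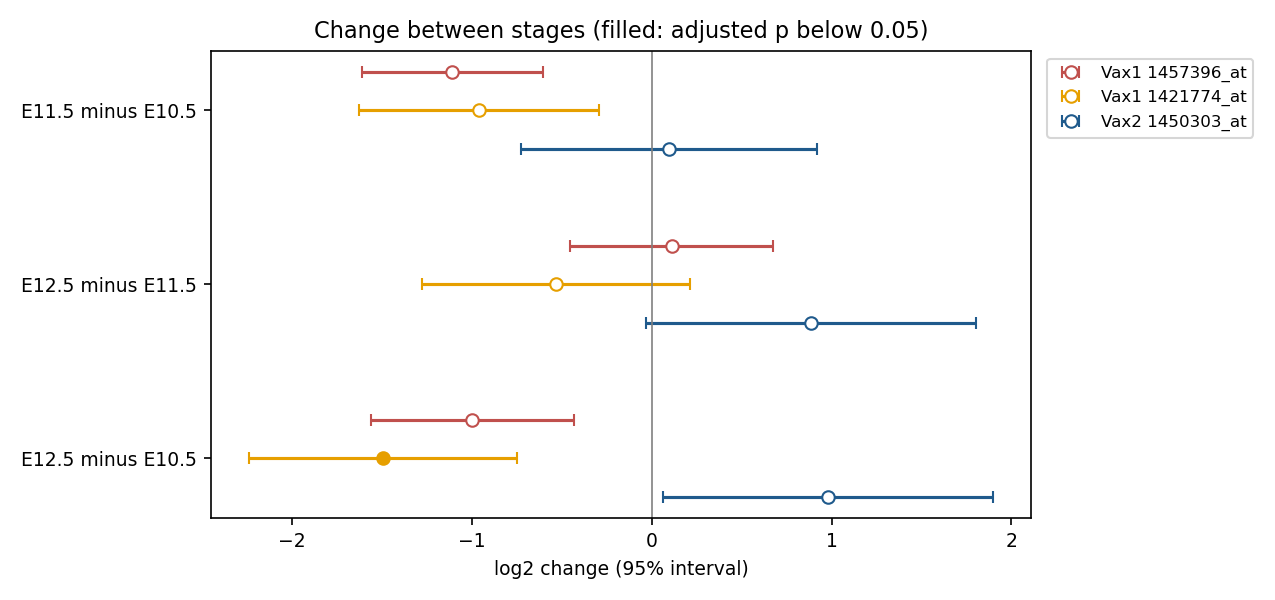
Log2 change between stages (horizontal axis) for each Vax1 and Vax2 probe set, with the 95% interval of the fit as bars. A filled point passed an adjusted p of 0.05, which only the dimmer Vax1 probe set did, at -1.5 for E12.5 minus E10.5.

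The counts of called members were set against those of all tested probe sets. Between E12.5 and E10.5, 1 of the 3 member probe sets was called lower and 0 higher, against 1.56% of all tested probe sets called lower, 3.08% called higher and 4.64% in either direction. All 3 had an unadjusted p below 0.05 there, as did 22.2% of all. Between E11.5 and E10.5 limma called 0 of 3, against 0.126% of all (0.0962% higher and 0.0296% lower), and 2 had an unadjusted p below 0.05, as did 19.4% of all. Between E12.5 and E11.5 it called 0 of 3, against 1.82% of all (1.62% higher and 0.20% lower), and 0 had an unadjusted p below 0.05, against 16.7% of all. Over the 3 stages 1 of 3 was called, against 2.92% of all. Complete separation was common in these small groups: E12.5 arrays lay wholly below E10.5 arrays for 25.7% of probe sets, which included both of Vax1, and wholly above them for 19.3%, which included that of Vax2. All 3 member probe sets passed the filter on low signal.

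The signal of Vax1 minus that of Vax2 was lowest at E12.5. Levels of different probe sets cannot be compared. The change of their difference on the same array leaves out only array effects that both share. Vax2 ran more closely with the Gapdh control than Vax1 did, as given below. The part of that control in this difference was not tested. This comparison was chosen after the values were seen. The log2 signal of Vax1 on the brighter probe set minus that of Vax2 averaged 0.02 ± 0.68 (SD, n = 3) on the E10.5 arrays, -1.19 ± 0.54 (SD, n = 3) on those of E11.5 and -1.96 ± 0.34 (SD, n = 2) on those of E12.5. Both E12.5 arrays, at -2.20 and -1.72, lay below all E10.5 arrays, which ran from -0.72 to 0.61, and the E11.5 arrays, at -0.65, -1.19 and -1.72, overlapped the E10.5 arrays. With the dimmer probe set the means were -0.75 ± 0.65 (SD, n = 3), -1.81 ± 0.92 (SD, n = 3) and -3.23 ± 0.54 (SD, n = 2). An exact permutation test of the 3 stages gave p = 0.0286 with the brighter probe set and p = 0.0536 with the dimmer probe set. After Benjamini-Hochberg adjustment over these 2 tests both were 0.0536, so the separation did not pass. The adjustment does not cover the choice of this comparison from the values, so these p-values are descriptions only. The smallest p this design allows is 0.00357. Between E12.5 and E10.5 the difference changed by -1.98 and -2.48, and it stayed negative, between -2.86 and -1.68, whichever array was left out.

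Vax2 varied within stages together with the Gapdh control of RNA quality, and less closely with the same control for Actb. Across the 8 arrays Vax2 correlated with the Gapdh 3 prime minus 5 prime signal at r = 0.87, and at r = 0.96 as deviations from stage means. On E11.5 A, with the lowest Gapdh value (3.35), Vax2 was lowest at 8.25, and on E12.5 A, with the highest (5.17), it was highest at 10.07. For the brighter probe set of Vax1 the correlations were 0.19 and 0.29, and for the dimmer probe set they were -0.24 and -0.30. The Actb 3 prime minus 5 prime signal correlated with Vax2 at 0.54 over the 8 arrays and at 0.64 as deviations. With the brighter Vax1 probe set it correlated at 0.50 and 0.54, and with the dimmer at 0.05 and -0.20. Vax2 and the brighter Vax1 probe set thus differed little in their link to Actb. The 99th percentile of each array correlated with Vax2 at 0.41 over the 8 arrays and at 0.78 as deviations. With the brighter Vax1 probe set that percentile correlated at 0.70 and 0.37, and with the dimmer at 0.34 and -0.05. Its part in the Vax1 and Vax2 changes was not tested. Both E12.5 arrays exceeded all earlier arrays in the Gapdh control, as they did in Vax2, and the part of RNA quality in the higher Vax2 signal was not tested. These correlations are descriptions over 8 arrays.

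**Figure D3:**
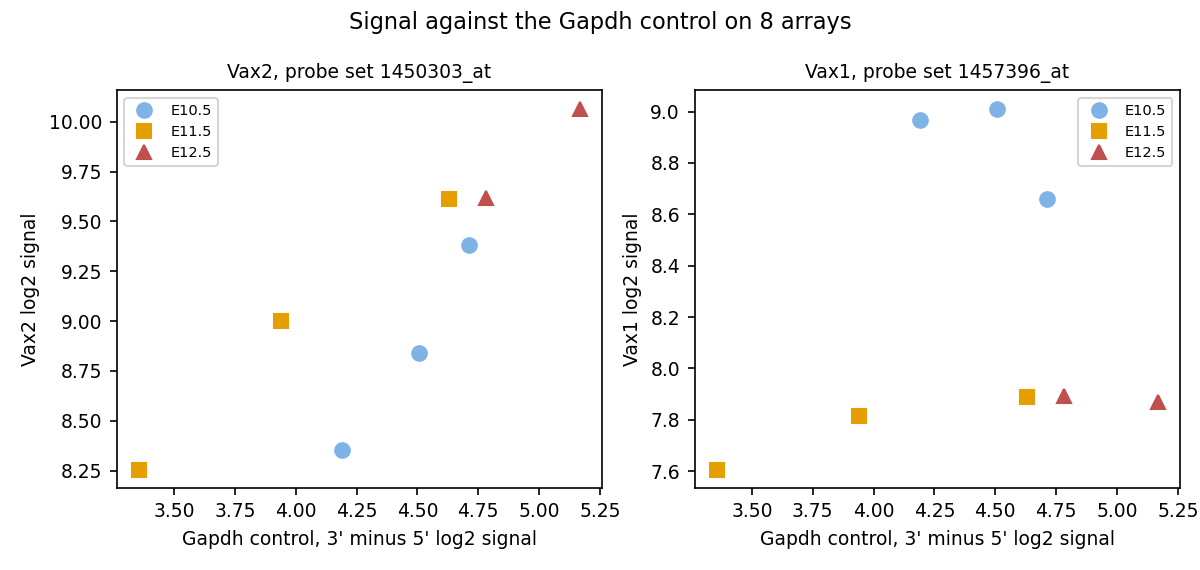
Log2 signal of Vax2 (left) and of Vax1 on the brighter probe set (right) against the Gapdh control's 3 prime minus 5 prime log2 signal, 1 point per array, coloured by stage. Vax2 runs with the control over all stages (r = 0.87), while the E10.5 arrays of Vax1 sit above all later arrays.

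Marker lists of other cells moved over the same days. The newborn retinal neuron list summed to a linear signal of 6120 and 20581 at E12.5, against 210 to 238 at E10.5, with 12 of 13 measured genes called higher. The periocular mesenchyme list summed to 1041 and 1672 at E12.5, against 427 to 581 at E10.5, with 2 of 12 higher. The optic cup and retinal progenitor list summed to 28765 and 30729 at E12.5, against 18084 to 21865 at E10.5, with 1 of 11 higher and 1 lower. On the E11.5 arrays it summed to only 7789 to 15188, wholly below E10.5, though limma called 0 of 11 in that comparison. At E12.5 relative to E11.5, 3 of its 11 genes were higher and 1 lower. The retinal pigment epithelium list summed to 4667 and 7165 at E12.5, against 2813 to 8239 at E10.5, with 5 of 11 higher and 1 lower. Of the other lists, limma called 0 genes of surface ectoderm, endothelium and macrophages in any comparison, and at E12.5 relative to E10.5 it called 1 of 7 lens genes and 1 of 5 ventral forebrain genes higher and 1 of 8 erythroid genes lower. At E11.5 relative to E10.5, 4 of 11 pigment genes and 3 of 12 mesenchyme genes were higher, against 0.153% of all 13050 genes. As array means of log2 signal, the pigment list correlated with Vax2 at r = 0.61 over the 8 arrays and at 0.98 as deviations from stage means, the progenitor list at 0.67 and 0.88, and the mesenchyme list at 0.45 and 0.72. By the same measures the ventral forebrain list gave 0.67 and 0.13, newborn neurons 0.56 and -0.34, and macrophages 0.52 and -0.07. Endothelium gave 0.42 and -0.03, erythroid cells -0.17 and 0.70, lens -0.14 and -0.76, and surface ectoderm -0.04 and -0.51. With Vax1 on the brighter probe set the mesenchyme list correlated at -0.87 and 0.44, the pigment list at -0.85 and -0.03, the lens list at -0.84 and -0.05 and the surface ectoderm list at -0.76 and 0.77. The dimmer Vax1 probe set gave -0.82 and -0.55 for mesenchyme, -0.68 and -0.01 for pigment, and -0.63 and -0.20 for lens. For surface ectoderm it gave -0.69 and -0.44, and for macrophages -0.81 and -0.27. The brighter probe set gave -0.63 and 0.27 for macrophages. As deviations, the mesenchyme, surface ectoderm and macrophage correlations thus had opposite signs on the Vax1 probe sets. The part of these cells in the Vax1 and Vax2 changes was not tested.

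Cdon and Pax6 had the signal patterns most like that of Vax2 among 13049 other genes, each taken on its brightest probe set. Cdon, a cell surface receptor that binds hedgehog ligands, correlated with Vax2 at r = 0.99 over the 8 arrays and at 0.99 as deviations from stage means. Its log2 signal was 11.13, 10.58 and 9.76 at E10.5, 9.70, 10.83 and 11.33 at E11.5, and 12.24 and 11.69 at E12.5. Pax6, the paired-box factor of the neural retina that Vax proteins are known to repress, correlated at r = 0.99 by both measures. Its log2 signal was 11.23, 10.41 and 9.76 at E10.5, 9.90, 10.79 and 11.61 at E11.5, and 12.27 and 11.86 at E12.5. All 3 genes were high on E10.5 A, E11.5 C and both E12.5 arrays and low on E10.5 C and E11.5 A.

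Neither Cdon nor Pax6 passed the test between stages on the values as deposited. The change at E12.5 relative to E10.5 was 1.47 for Cdon (limma adjusted p = 0.124) and 1.60 for Pax6 (adjusted p = 0.105). After quantile normalization both passed, at 1.57 for Cdon (adjusted p = 0.0351) and 1.71 for Pax6 (adjusted p = 0.0210), and they also passed with array weights. The next in order were Pcmtd1 (r = 0.99), AW549877 (r = 0.98) and Nfat5, a transcription factor of the osmotic stress response (r = 0.98). Such likeness was frequent within stages: r exceeded 0.9 for 11.9% of genes as deviations from stage means and for 3.56% over the 8 arrays. The dimmer probe sets of both genes did not share it. The other 3 kept probe sets of Pax6 correlated with Vax2 at -0.28, 0.35 and -0.25 over the 8 arrays, and the other of Cdon at -0.51.

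**Figure D4:**
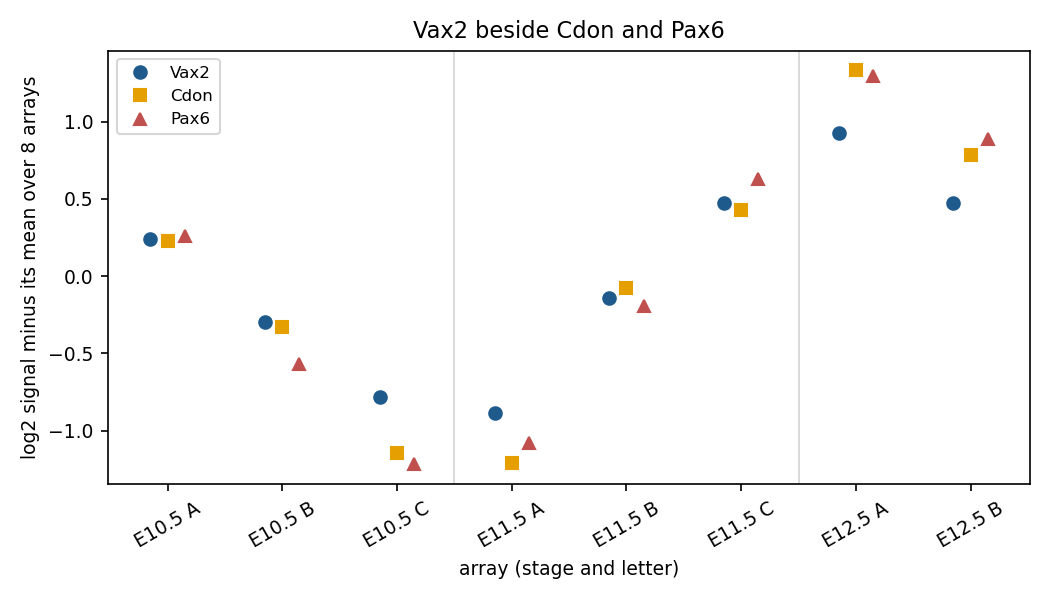
Log2 signal minus the gene's mean over 8 arrays (vertical axis) for Vax2, Cdon and Pax6 on each array (horizontal axis, stages separated by grey lines). The genes are high and low on the same arrays, with r = 0.99 to Vax2 for both others.

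For Vax1, on the brighter probe set, the most similar gene was Tti1, part of a complex that stabilizes large protein kinases of the DNA damage and growth responses, with r = 0.997 over the 8 arrays and 0.97 as deviations. Tti1 averaged 6.89 on the E10.5 arrays, 6.43 on those of E11.5 and 6.45 on those of E12.5, a smaller difference than that of Vax1. Rpp40, a subunit of ribonuclease P (r = 0.97), Dis3, a ribonuclease of the RNA exosome (r = 0.97), Pop4, another ribonuclease P subunit (r = 0.97), and Dpp3, a dipeptidyl peptidase (r = 0.97), followed. All 5 kept r above 0.5 as deviations from stage means, as did all 5 for Vax2. For Vax1 this likeness describes the brighter probe set alone. The dimmer probe set correlated with the brighter at r = -0.79 as deviations. None of the 5 passed the test in any pairwise comparison, and r exceeded 0.9 over the 8 arrays for 1.22% of genes.

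The genes around the members were described by 7 lists, each gene by its brightest probe set, and the lists share members. Over all 13050 measured genes, 3.49% were called higher and 1.78% lower at E12.5 than at E10.5, with a median change of -0.10. At E12.5 relative to E11.5 these shares were 1.79% and 0.238%, and at E11.5 relative to E10.5 they were 0.153% and 0.023%. In the list of ventral optic cup and optic stalk genes, 4 of 15 measured rose and 5 fell at E12.5 relative to E10.5, with a median of -0.37. Ntn1, the secreted guidance factor netrin 1 of the fissure margins, fell to 4.33 ± 0.33 (SD, n = 2) at E12.5, against 8.37 ± 0.48 (SD, n = 3) at E10.5, a change of -4.04 (SE 0.30, adjusted p = 3.57e-05). Nr2f2, a nuclear receptor of the optic stalk and dorsal cup, fell by 2.53 (adjusted p = 0.000748), and all 6 of its kept probe sets passed. The Eph receptor gene Epha5 rose by 3.72 (adjusted p = 0.000118), and Bmpr1b, a BMP receptor of the ventral retina, rose by 2.0 (adjusted p = 0.00371). Of their kept probe sets, 3 of 4 passed for Epha5 and 2 of 3 for Bmpr1b. Genes of this list thus passed the test in both directions.

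Smoc1, a matrix protein needed for eye formation, rose by 1.45 at E12.5 relative to E11.5 (adjusted p = 0.0138). In that comparison 3 of the 15 genes rose and 2 fell, and at E11.5 relative to E10.5 limma called 0 of 15. These counts use the brightest probe sets. Between E12.5 and E11.5, 1 dimmer probe set each of Cyp1b1, Zfp503 and Sfrp1 also passed. Between E11.5 and E10.5, 1 of the 6 kept probe sets of Nr2f2 did. Aldh1a3, the retinoic acid synthesis enzyme of the ventral cup, averaged 11.69, 11.58 and 11.72 log2 units at the 3 stages, and its change at E12.5 relative to E10.5 was 0.02 (adjusted p = 0.984).

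In the list of dorsal optic cup genes, 1 of 11 measured rose and 1 fell at E12.5 relative to E10.5, with a median of -0.39. Genes of this list need not be confined to the dorsal cup. Foxn4, a forkhead factor of retinal progenitors, rose by 2.06 (adjusted p = 0.000884). Bmp4, the dorsal BMP ligand, fell by 0.91 (adjusted p = 0.0375), at 3.57 ± 0.01 (SD, n = 2) at E12.5 against 4.48 ± 0.42 (SD, n = 3) at E10.5, below the mean of 3.94 that the filter on low signal required. At E12.5 relative to E11.5, 1 of 11 rose, again Foxn4, by 1.83 (adjusted p = 0.00301), and at E11.5 relative to E10.5 limma called 0.

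Of 12 measured optic cup genes reported downstream of the members, 1 fell and 0 rose at E12.5 relative to E10.5, with a median of -0.36. Otx2, a homeobox factor of the pigment epithelium, fell by 1.34 (adjusted p = 0.0469). For Mitf, the master regulator of pigment cells, the change was -1.18 (adjusted p = 0.182), and for Rax, an eye field factor, it was -0.48. Tcf7l2, a Wnt pathway factor, changed by -0.03 and the dorsal T-box factor Tbx5 by -0.94. The ephrins Efnb1 and Efnb2 changed by -0.63 and 0.14, their receptor Ephb3 by -0.37, and the retinoid enzymes Aldh1a1 and Cyp26a1 by 0.73 and -0.35. In the other 2 comparisons limma called 0 of the 12 on their brightest probe sets. Of the 2 kept probe sets of Mitf, the dimmer passed between E12.5 and E11.5.

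In the hedgehog pathway, the upstream signal of the members, 1 of 12 measured genes rose and 2 fell at E12.5 relative to E10.5, with a median of -0.19. Scube2, which helps to release hedgehog ligands, fell by 2.14 (adjusted p = 0.00221), and at E11.5 relative to E10.5 it fell by 1.64 (adjusted p = 0.0401), the 1 call of the list there. Gli1, a transcription factor and target of the pathway, fell by 0.90 (adjusted p = 0.0339). Hhip, an antagonist that binds hedgehog ligands, rose by 1.33 (adjusted p = 0.0178), and by 1.23 relative to E11.5 (adjusted p = 0.0422). It was the 1 call of that comparison on a brightest probe set. Of the 2 kept probe sets of Boc, another gene of this list, the dimmer passed there. The ligand gene Shh did not pass the filter on low signal.

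Of 25 measured FGF, BMP and retinoid genes, 3 rose and 2 fell at E12.5 relative to E10.5, with a median of -0.06. Fgf15, a growth factor of retinal progenitors, rose by 2.80 (adjusted p = 0.00205), and Etv5, an FGF target, rose by 1.54 (adjusted p = 0.00348). Fst, follistatin, which binds activins and BMPs, fell by 2.87 (adjusted p = 0.00166). At E12.5 relative to E11.5, 4 rose and 0 fell on their brightest probe sets, among them Fgf9, an FGF ligand, by 2.12 (adjusted p = 0.0320). The dimmer of the 2 kept probe sets of Fst passed there, while that of Fgf9 did not. At E11.5 relative to E10.5 limma called 0 of 25.

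Of 8 measured relatives in the Pax and Emx families, 1 rose, Pax7, a factor of the dorsal brain and muscle precursors, by 1.58 at E12.5 relative to E10.5 (adjusted p = 0.0106) and by 1.31 relative to E11.5 (adjusted p = 0.0425). Its E12.5 mean was 5.67 ± 0.66 (SD, n = 2), against 4.09 ± 0.11 (SD, n = 3) at E10.5. Pax3, Pax4, Pax5, Pax9, Emx1 and Emx2 averaged at most 5.18 at any stage and did not pass the test, with changes at E12.5 relative to E10.5 between -0.28 for Pax4 and 0.45 for Pax3. Of 8 measured partners and corepressors of Pax proteins, 2 rose at E12.5 relative to E11.5, the Groucho corepressors Tle1, by 1.96 (adjusted p = 0.00831), and Tle4, by 1.54 (adjusted p = 0.0423). Both kept probe sets of Tle1 passed there, and 1 of the 2 of Tle4. At E12.5 relative to E10.5 limma called 0 of 8.

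**Figure D5:**
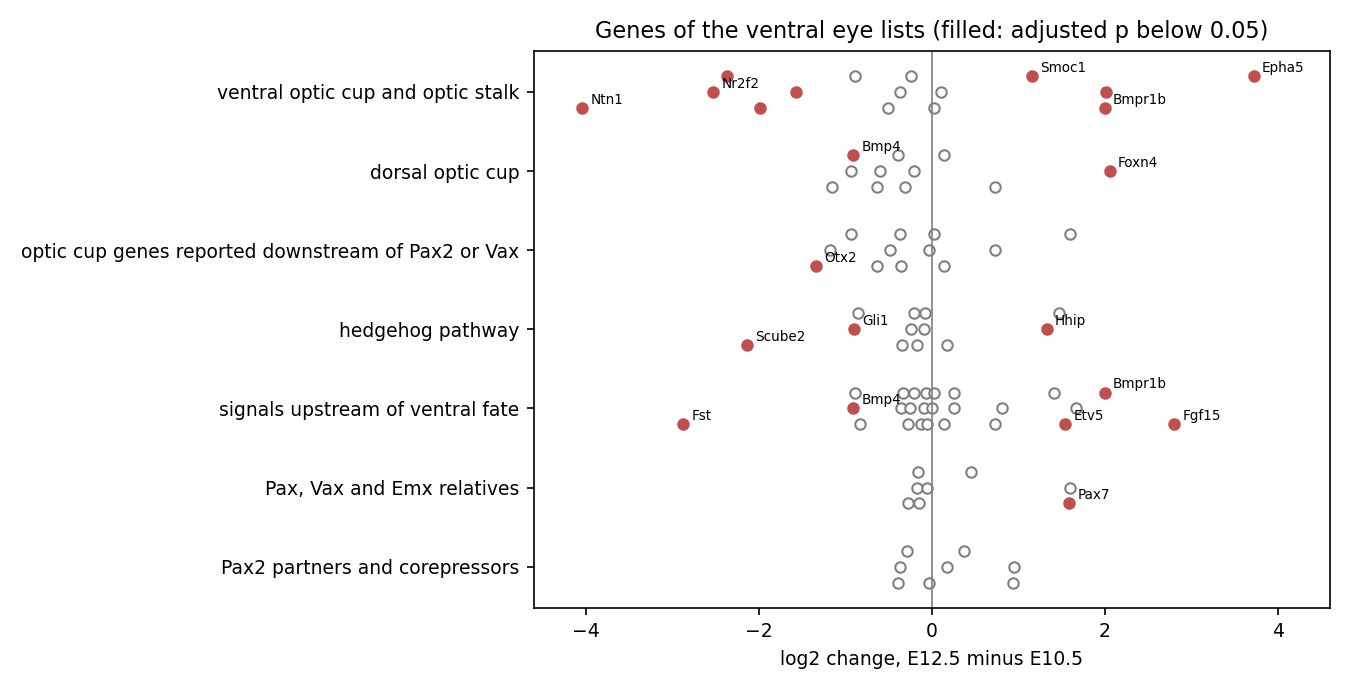
Log2 change at E12.5 relative to E10.5 (horizontal axis) of every measured gene in 7 lists (rows), 1 point per gene, filled where the adjusted p was below 0.05 and with names for genes given in the text. Called genes lie on both sides of 0, from Ntn1 at -4.04 to Epha5 at 3.72.

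Of the genes named from these lists as called, 8 of 15 stayed called between E12.5 and E10.5 whichever array was left out: Ntn1, Nr2f2, Epha5, Foxn4, Scube2, Fgf15, Etv5 and Fst. Between E12.5 and E11.5, 4 of 13 did: Ntn1, Epha5, Fgf15 and Etv5. Among the fits that left out 1 array, Bmpr1b was lost between E12.5 and E10.5 without E12.5 B, and Hhip and Pax7 without E12.5 A, while Otx2, Bmp4, Gli1 and Smoc1 were each lost without E12.5 A and E12.5 B in turn and without at least 1 earlier array. Between E12.5 and E11.5, Foxn4 and Tle1 were lost without E12.5 B, and Nr2f2, Bmpr1b, Smoc1, Fgf9, Hhip, Pax7 and Tle4 without at least 3 different arrays each. The call of Scube2 between E11.5 and E10.5 was lost without any 1 of 6 arrays. Over all alternatives, the calls between E12.5 and E10.5 held in 6 of 16 for Bmp4, 8 of 17 for Otx2, 9 of 16 for Gli1, 12 of 17 for Smoc1 and 13 of 16 for Hhip.

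Several of these genes were dim in at least 1 stage, so the size of their change depends on how low signal is treated. Etv5 averaged 3.76 at E10.5, Hhip 3.88 and Pax7 4.09. At E12.5 Ntn1 averaged 4.33 and Gli1 4.10. All of these means lay below the lowest array median of 4.37. With a pseudocount of 64 added to the linear signal, the change at E12.5 relative to E10.5 was -2.23 for Ntn1, 2.44 for Epha5, 0.42 for Etv5, 0.37 for Hhip, 0.52 for Pax7, -0.96 for Scube2 and -0.25 for Gli1, each with the call kept. Under that pseudocount Bmp4 changed by -0.19 (limma adjusted p = 0.0699) and Otx2 by -1.26 (adjusted p = 0.0525), and both calls were lost. At E12.5 relative to E11.5 the changes were -1.06 for Ntn1, 0.43 for Etv5, 0.34 for Hhip and 0.45 for Pax7, with the calls kept. At E11.5 relative to E10.5 that of Scube2 was -0.80, and its call was lost (adjusted p = 0.0908).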

How the data were processed

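Per the labels' protocols, optic fissure tissue was laser-captured, RNA from 3 embryos was pooled per array, amplified in 2 rounds and hybridised to 1-colour arrays. The authors deposited 1 log2 value per probe set and array. Per the submitters' processing notes, GCOS 1.4 was used, and the summarization method was not found in those notes or in the labels. Of 45101 probe sets, 34958 carried 1 gene symbol in the platform annotation, 932 several and 9211 none. Pax2 had no annotated probe set, so the tests planned for it were not run and it is not analysed here.

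The 64 control probe sets and the 40% of probe sets with the lowest mean over all arrays were left out, which left 27022. Stages were compared with limma 3.58.1 in R 4.3.3 (a fit over all 8 arrays, with a mean-variance trend), with Benjamini-Hochberg adjustment over all kept probe sets and a threshold of 0.05. The fit was tested on simulated data with known changes. A gene stands for its brightest probe set, and for Vax1 and Vax2 every probe set is given. Named are called genes of the 7 lists (up to 4 a list and comparison, by smallest p), all measured downstream genes and relatives, and the 5 genes most like each member by Pearson r over the 8 arrays (and whether r stayed above 0.5 as deviations from stage means). The genes and lists were chosen with earlier results of these data known, and probe sets were then taken by gene symbol alone. The letters A to C were checked as pairs: same-letter deviations correlated between -0.39 and 0.13 over 7 pairs, so they were not treated as pairs. Alternatives covered scaling, a pseudocount, filters, array weights, the samples fitted and leaving out each array.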

Additional observations from a re-analysis of the deposited data

How the results depend on the processing

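The sign of the Vax1 change at E12.5 relative to E10.5 held on both probe sets under all 17 alternatives, and that of Vax2 did too, between 0.73 and 1.24. For Vax1 on the brighter probe set, that change came to pass the limma test after quantile normalization (-0.97, adjusted p = 0.0360), with a pseudocount of 64 (-0.84, 0.0450), with the lowest 60% left out (-1.0, 0.0468), without the trend (-1.0, 0.0343) and with array weights (-1.02, 0.00582). Array weights also brought the Vax1 change at E11.5 relative to E10.5 (-1.09, 0.00259) and the Vax2 change at E12.5 relative to E11.5 (0.84, 0.00156) past the threshold, but they gave 1 array, E11.5 B, a weight of 218 against at most 1.20 for the others. Changes that had not passed turned sign for Vax1 at E12.5 relative to E11.5 after quantile normalization (-0.21) and for Vax2 at E11.5 relative to E10.5 without E10.5 C (-0.16) or E11.5 C (-0.23). Between E12.5 and E10.5 the 1 called member probe set became 2 under the 5 alternatives named first, and 0 with the replicate block (dimmer Vax1 probe set, adjusted p = 0.0861) or with only the 2 stages compared (0.0910), and was 0 to 1 with an array left out. With array weights 2 members were called in each of the other 2 comparisons. By the test over all stages 1 member was called, against 0 after quantile normalization, without a filter or with the replicate block, 3 with array weights, and 0 to 1 with an array left out. Of all probe sets, 34 were called between E11.5 and E10.5, against 0 with the pseudocount, 6 without the trend, 5017 with array weights, 5 with the replicate block, 15 with only the 2 stages and 5 to 56 with an array left out. Between E12.5 and E11.5 there were 492, against 12520 with array weights, 280 with the replicate block and 114 to 905 with an array left out. Between E12.5 and E10.5 there were 1255, against 3371, 531 and 209 to 1610, and 509 with only the 2 stages. The cause of these shifts was not tested. The unadjusted p of Vax1 on the brighter probe set minus Vax2 exceeded 0.05 in exact permutation tests when any 1 of 6 arrays was left out, up to 0.114 without E12.5 A.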
